A study of Mus musculus with 8 samples.

Results

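The genes described here encode B-MYB, its relative A-MYB, the MuvB core that B-MYB binds, and the pocket proteins that occupy the same core in resting cells. They were taken by name, as Mybl1 and Mybl2 (MYB family), Lin9, Lin37, Lin52, Lin54 and Rbbp4 (MuvB core), and Rb1, Rbl1 and Rbl2 (pocket proteins). These are 10 of the 42775 genes of the table, and all 10 passed the filter for the test, a mean of at least 1 CPM, which is the reads of a gene expressed relative to the total that were assigned in its library. RNA was sequenced from wildtype Swiss Webster mouse cochlear explants kept for 6 h in 10 µM CHIR99021, a GSK3 inhibitor that stabilises β-catenin and thereby switches on Wnt target genes, or in the DMSO vehicle as control. Each group held 4 libraries, and in each group replicates 1 and 3 are labelled female and replicates 2 and 4 male. The labels name E14.0 cultures as the source and also E12.5 cochleas on culture day 1, so the stage is given here only as labelled. The methods call the libraries biological replicates and do not say how many cochleas went into each.

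MuvB is a small assembly of proteins that sits at the promoters of cell cycle genes and changes partner as a cell moves through the cycle. In resting cells it joins the pocket proteins p130 or p107 with E2F4 or E2F5 and a DP protein to form DREAM, a repressor of genes of both the G1/S and the G2/M wave. When the cell enters the cycle, cyclin-dependent kinases phosphorylate the pocket proteins, the repressor comes apart, and the core then pairs with B-MYB and later FOXM1 to activate the G2/M genes. The third pocket protein, RB, restrains the activating E2Fs without MuvB. The cochlear floor is known for progenitors that divide and then leave the cycle in an ordered way before hair cells form.

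The regulatory sequence before the start of 3 of the genes is shown because they are compared below. They encode B-MYB and the pair of pocket proteins that bind MuvB. The sequences are the 250 bases before the RefSeq start site in GRCm38.p6, written 5′ to 3′ on the strand of the gene. Mybl2 lies at chr2:163054385-163054634 on the plus strand, Rbl1 at chr2:157204535-157204784 on the minus strand and Rbl2 at chr8:91069807-91070056 on the plus strand. Capitals mark the letters of the searched motifs on either strand.
Mybl2: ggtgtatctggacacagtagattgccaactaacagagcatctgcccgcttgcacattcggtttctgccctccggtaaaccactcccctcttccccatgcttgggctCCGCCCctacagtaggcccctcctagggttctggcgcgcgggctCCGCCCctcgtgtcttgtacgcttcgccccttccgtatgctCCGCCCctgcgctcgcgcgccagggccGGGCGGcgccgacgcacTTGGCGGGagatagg
Rbl1: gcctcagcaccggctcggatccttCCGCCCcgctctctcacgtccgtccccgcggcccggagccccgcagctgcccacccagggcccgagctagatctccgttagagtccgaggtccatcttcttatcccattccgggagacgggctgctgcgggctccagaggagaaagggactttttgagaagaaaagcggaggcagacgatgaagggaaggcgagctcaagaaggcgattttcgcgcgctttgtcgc
Rbl2: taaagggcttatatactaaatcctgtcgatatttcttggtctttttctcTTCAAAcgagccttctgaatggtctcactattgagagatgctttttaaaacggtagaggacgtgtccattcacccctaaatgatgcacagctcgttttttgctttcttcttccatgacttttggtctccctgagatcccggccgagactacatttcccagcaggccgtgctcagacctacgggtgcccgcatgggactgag

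The motifs searched were those known for the factors of these complexes. For E2F the letters were TTTGGCGC, TTTCCCGC, TTGGCGGG and a shorter form, TTGGCGC, which lies within the first of these. For the cell cycle homology region (CHR) bound by LIN54 they were TTTGAA, the common form, or the less common form TTCGAA. The CCAAT box, the GC box with the letters GGGCGG, and those bound by TCF/LEF factors, the effectors of Wnt signalling, CTTTGAT or else a form of the same length, CTTTGAA, were added. The last of these holds the common CHR form, and both strands were searched. The Mybl2 window held TTGGCGGG from 15 to 8 bases before the start, and GC boxes at 4 places. The Rbl2 window held the CHR letters on the opposite strand from 201 to 196 bases before the start, and no other searched motif. In the Rbl1 window a single GC box on the opposite strand was the only match to the searched letters. Other forms of the E2F letters were not searched, so a window without a match may still hold an E2F site.

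Of the 10 genes, 7 had a window in the RefSeq table, with 8 windows in all since Lin54 has 2 start sites, and Mybl1, Lin9 and Rb1 were not among them. An E2F match was found in the windows of Mybl2, Rbbp4 (TTGGCGC, 15 to 9 bases before the start), Lin52 (TTTCCCGC, 27 to 20 bases) and the second Lin54 start (TTGGCGGG, 154 to 147 bases). Among all 32851 promoter windows of the same length, 3.55% held an E2F match and 17.1% a CHR match. CHR letters were present in the Lin37, Rbl2 and second Lin54 windows, CCAAT (33.8% of all windows) in those of Lin37, Lin52, Rbbp4 and the second Lin54 start, and a GC box (32.7%) in each window but that of Rbl2. None of the 8 windows held the TCF/LEF letters, which 7.48% of all windows did. A match describes the letters and not a bound site. The RefSeq starts also differ from the GENCODE gene positions given below. The Lin52 window (84451258 to 84451507) runs past the GENCODE start at 84451422. The Lin37 window (30559647 to 30559896, minus strand) reaches inside a gene that GENCODE ends at 30559838. Part of each of these windows therefore lies within the annotated gene.

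**Figure D1:**
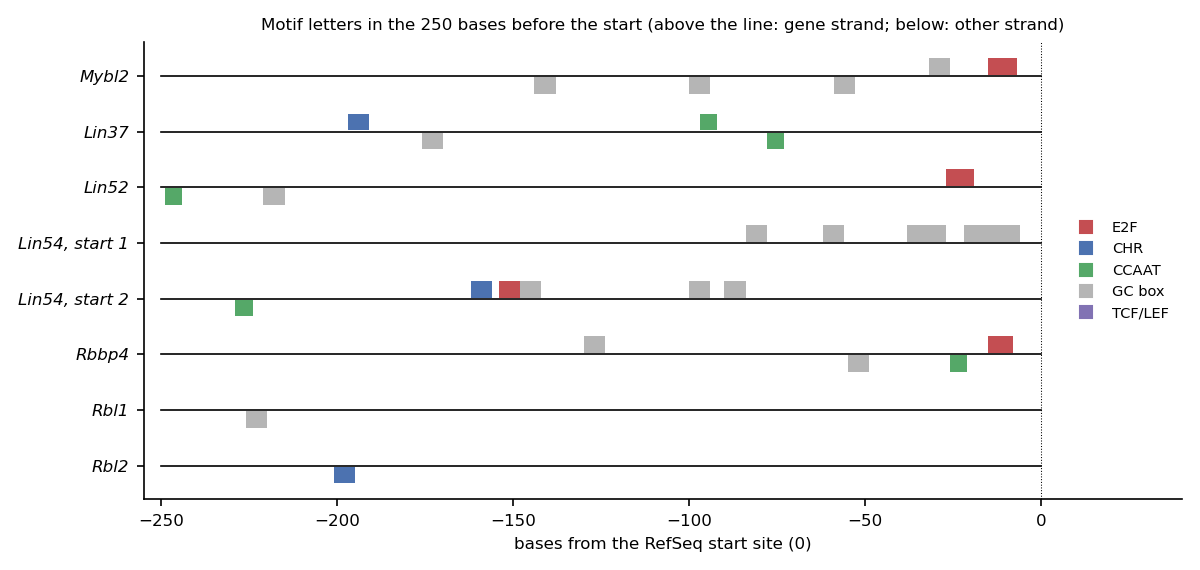
Matches to the searched motifs in the 250 bases before each RefSeq start site, with the distance from the start in bases on the horizontal axis and 1 line per window. Boxes above a line lie on the strand of the gene and boxes below it on the other strand. The E2F match of Mybl2 lies 15 to 8 bases before the start, the CHR match of Rbl2 201 to 196 bases before it, and no window holds a TCF/LEF match.

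The libraries held 66483661 to 89269187 assigned reads in control and 64905007 to 75434130 in CHIR99021, and the least covered of the 10 genes, Mybl1, still had at least 310 reads in each library. All 6 genes listed as readouts of Wnt activity rose, with a median log2 fold change of 1.99. The highest were Sp5 (2.28) and Nkd1 (2.24), and the lowest Znrf3 (1.19) and Axin2 (1.59). The listed markers of cochlear epithelium (1 of 7 higher and 1 lower, or 2 lower without control replicate 1) summed to 3348 to 3530 CPM in control and 3516 to 3862 CPM in CHIR99021. The labelled tissue was thus present in both groups. Most of the sum was Oc90 (mean 2482 CPM in control and 2566 CPM in CHIR99021). Jag1 was the marker that rose (162 to 385 CPM) and Sox2 the one that fell (59.1 to 44.7 CPM). These genes were named after their values were seen. The explants also held other tissue. The summed level of 5 cartilage markers was 4494 to 5828 CPM in control and 3542 to 4031 CPM in CHIR99021, with 3 of the 5 lower, and that of 4 glial markers 232 to 270 and 194 to 217 CPM, with 2 of 3 tested lower. Neuronal markers summed to 60.8 to 78.9 and 37.9 to 65.0 CPM, with 1 of 5 lower. With the replicate number as a block, 5 of 5 cartilage, 3 of 3 glial and 3 of 5 neuronal markers were lower (limma). Over all genes tested 21.4% were lower, and 26.1% with the block. Single libraries moved these counts too, to 5 of 5 for cartilage without control replicate 3, to 3 of 5 for neurons without CHIR99021 replicate 3 and 2 of 5 without control replicate 4 or CHIR99021 replicate 4, and to 1 of 3 for glia without control replicate 2 or CHIR99021 replicate 4, as also after TMM scaling. Listed markers of periotic mesenchyme (2 of 5 higher and 2 lower, or 1 higher without control replicate 1 or 4 or CHIR99021 replicate 1, 2 or 3) summed to 958 to 1034 CPM in control and 965 to 1040 CPM in CHIR99021, and none of the listed markers was at 0 throughout. The part of these tissues in the results below was not tested, and in bulk RNA fewer cells of a type and less RNA per cell cannot be told apart.

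Expressed per kb of exon, which allows genes to be compared with one another, Rbbp4 stood far above the other members in control with 51.2 ± 2.51 CPM per kb (SD, n = 4). Lin37 followed with 8.56 ± 0.444, Mybl2 with 7.17 ± 0.343 and Rbl1 with 6.80 ± 0.543 CPM per kb. Mybl2 and Rbl1 overlapped between libraries, whereas each control library had more Lin37 per kb than any had of Mybl2. Lin54 (5.59), Rb1 (5.48) and Lin52 (5.01 CPM per kb) overlapped as neighbours in the order, and were followed by Rbl2 (4.49), Lin9 (3.06) and Mybl1 (1.60). In CHIR99021 Mybl2 stood next to Rbbp4 in the order, with 10.3 ± 1.40 CPM per kb (SD, n = 4), and Rbl2 had 2.30 ± 0.158 CPM per kb, with only Mybl1 below it at 1.13.

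Of the 10 genes, 1 was higher in the treated libraries and 2 were lower at the adjusted p threshold of 0.05 (limma on log2(CPM + 1), Benjamini-Hochberg over 14264 genes), and 7 did not pass. By the same rule 12.3% of the genes tested were higher and 21.4% were lower. Mybl2 was the gene that rose, and Rb1 and Rbl2 were those that fell. The same 3 genes had no overlap between the groups, which 12.7% of all genes tested showed with CHIR99021 higher and 20.6% with CHIR99021 lower. The median log2 fold change of the 10 genes was -0.06, beside -0.05 over all genes. After TMM scaling, a library scaling that moved the median log2 fold change of all genes by 0.06, 2 members were higher and 2 lower, beside 17.1% and 16.3% of all genes.

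**Figure D2:**
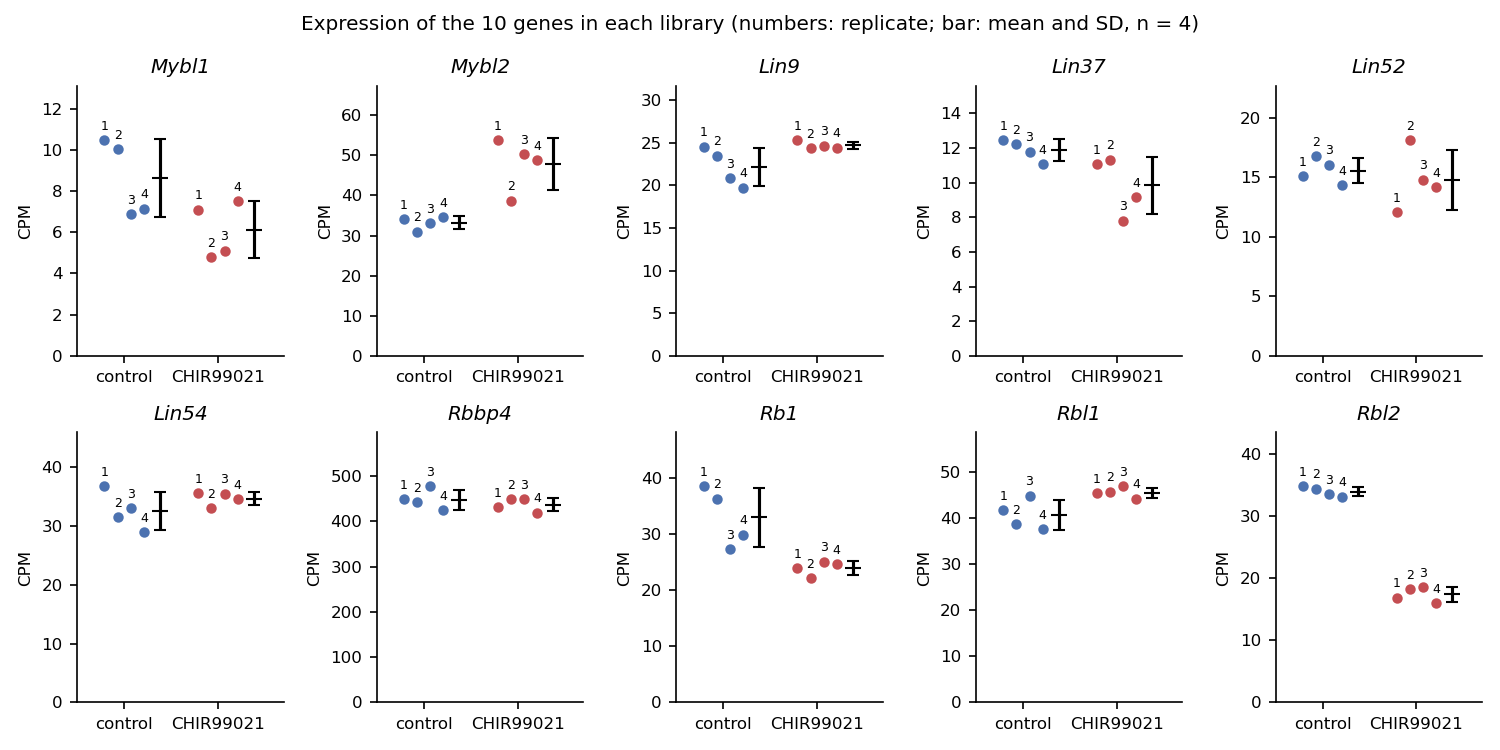
CPM of each of the 10 genes in each of the 8 libraries, with the vertical axis from 0 in every panel. Points are libraries with their replicate number, and the bar beside them is the mean with the SD (n = 4). The groups are apart for Mybl2 (31.0 to 34.5 against 38.7 to 53.8 CPM), Rb1 (27.2 to 38.4 against 22.1 to 25.1 CPM) and Rbl2 (33.1 to 34.7 against 15.98 to 18.6 CPM), and overlap for the others.

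Mybl2 (ENSMUSG00000017861, chromosome 2, 163054687 to 163084688 in GRCm38, plus strand) encodes B-MYB, the transcription factor that turns MuvB into an activator of late cell cycle genes. It had 34.1, 31.0, 33.1 and 34.5 CPM in control replicates 1 to 4 and 53.8, 38.7, 50.2 and 48.8 CPM in CHIR99021. Each treated library was above each control, with replicate 2 nearest to the controls. The mean went from 33.2 ± 1.59 to 47.9 ± 6.48 CPM (SD, n = 4 each), which is a log2 fold change of 0.51 on log2(CPM + 1) with a 95% confidence interval of 0.30 to 0.71 (limma adjusted p = 0.0021). Permuting the 8 values over the groups, an exact two-sided test, gave p = 0.0286, the smallest that 4 against 4 libraries allow. Of 14264 genes, 466 had a log2 fold change at least as high as that of Mybl2. The study shortlisted Mybl2 from these same libraries for its rise, among transcription factor genes, and then chose it by its in situ expression. Its test here is therefore not independent evidence of the direction. Separately, the paper reported Mybl2 transcripts as present in control cochleas and absent where β-catenin was deleted.

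Libraries 1 and 4 of both groups had a read for 22838 to 24249 genes and libraries 2 and 3 for 20301 to 20698, so the treatment was also tested within each set. In replicates 1 and 4 Mybl2 differed by 0.56 on the log2 scale (limma adjusted p = 0.00479), and in replicates 2 and 3 by 0.45 (limma adjusted p = 0.0669), the latter short of the threshold with 2 libraries a group.

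Mybl1 (ENSMUSG00000025912, chromosome 1, 9667415 to 9700209, minus strand) encodes A-MYB, which is best known for driving gene expression in meiotic spermatocytes and can also bind MuvB. It had 10.5, 10.0, 6.87 and 7.13 CPM in the control libraries and 7.09, 4.78, 5.11 and 7.50 CPM in the treated ones, so that the 2 lower controls lay among the treated libraries. The log2 fold change was -0.43 (95% confidence interval -0.81 to -0.06) and did not pass the test (limma adjusted p = 0.0725). With the replicate number as a block it passed (limma adjusted p = 0.0372), which made 3 members lower and 1 higher beside 26.1% and 15.4% of all genes, and it also passed without control replicate 3 (0.0432). With TMM scaling and the block together it did not pass (limma adjusted p = 0.0578). Within a library the CPM of Mybl2 over that of Mybl1 was 3.09 to 4.84 in control and 6.51 to 9.83 in CHIR99021. Such ratios do not depend on library scaling, and are not corrected for gene length, so they are read only between groups.

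Of the 5 core genes, 0 passed the test in either direction (limma), beside 12.3% higher and 21.4% lower over all genes tested. Their median log2 fold change was -0.04. At an unadjusted p under 0.05 there was 1, Lin37, and on recovered reads edgeR called 0 and DESeq2 called 1, Lin9. Lin9 (ENSMUSG00000058729, chromosome 1, 180641150 to 180690694) encodes the scaffold that, together with LIN52, contacts B-MYB. It had 24.5, 23.5, 20.9 and 19.7 CPM in the control libraries and 25.3, 24.4, 24.6 and 24.4 CPM in the treated ones. The treated libraries lay close together near or above the top of the control range, and the log2 fold change was 0.16 (95% confidence interval -0.02 to 0.33, limma adjusted p = 0.161, DESeq2 adjusted p = 0.0459).

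Lin52 (ENSMUSG00000085793, chromosome 12, 84451422 to 84546145) encodes the subunit that DYRK1A phosphorylates to recruit p107 or p130, and so stands at the exchange between the repressor and B-MYB. It had 15.1, 16.8, 16.1 and 14.3 CPM in the control libraries and 12.1, 18.1, 14.8 and 14.2 CPM in the treated ones, where replicates 1 and 2 marked the lowest and the highest value of all libraries. The difference was -0.08 on the log2 scale (95% confidence interval -0.33 to 0.17, limma adjusted p = 0.630) and took the other sign, at 0.0058, without CHIR99021 replicate 1. Lin37 (ENSMUSG00000036845, chromosome 7, 30555441 to 30559838) encodes a subunit needed for repression by DREAM and dispensable for activation. It had 12.5, 12.2, 11.8 and 11.1 CPM in the control libraries and 11.1, 11.3, 7.80 and 9.16 CPM in the treated ones. Replicates 3 and 4 were lower than any control and the other treated libraries were not, and the log2 fold change of -0.26 (95% confidence interval -0.52 to -0.004) did not pass after adjustment (limma adjusted p = 0.109).

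Lin54 (ENSMUSG00000035310, chromosome 5, 100441918 to 100500639) encodes the DNA-binding subunit that reads the CHR letters. Its CPM were 36.7, 31.5, 33.0 and 28.9 in control and 35.5, 33.1, 35.5 and 34.5 in CHIR99021, all of the latter within the control range. The log2 fold change was 0.09 (95% confidence interval -0.08 to 0.26, limma adjusted p = 0.388). Rbbp4 (ENSMUSG00000057236, chromosome 4, 129307100 to 129335370) encodes a histone-binding WD40 protein that is also a subunit of CAF-1, NuRD, SIN3 and PRC2. It had 448, 442, 477 and 424 CPM in the control libraries and 431, 449, 448 and 419 CPM in the treated ones. The groups overlapped nearly throughout, and the 95% confidence interval of the log2 fold change, -0.16 to 0.09, was the narrowest of the 10 genes (limma adjusted p = 0.667). Its sign was not settled, being -0.04 as deposited and 0.03 after TMM scaling. Rbbp7, a close paralog with 299 ± 11.1 CPM in control and 313 ± 5.87 CPM in CHIR99021 (SD, n = 4 each, limma adjusted p = 0.329), is similar enough that reads could have been split between the pair, so the level of Rbbp4 is uncertain to that extent. Gm26722, a long noncoding RNA gene on the opposite strand, shares 796 exonic bases with Rbbp4, and its level averaged 1.48 CPM over the controls and 2.12 CPM over the treated libraries.

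**Figure D3:**
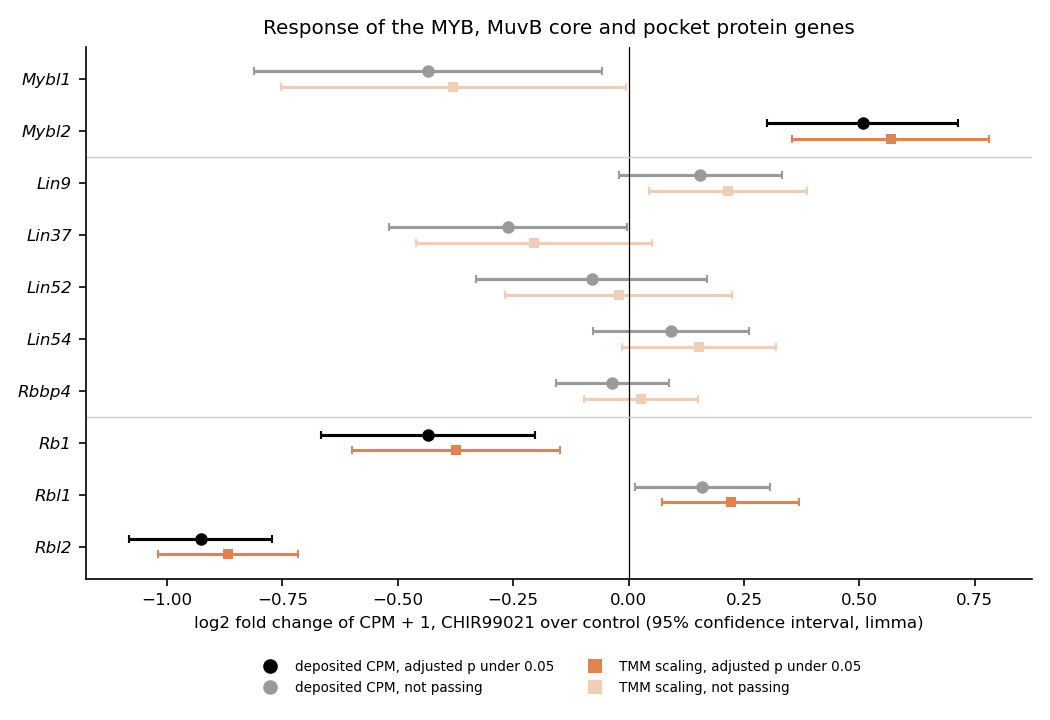
Log2 fold change of CPM + 1, CHIR99021 over control, with its 95% confidence interval for each of the 10 genes (8 libraries, limma), on the deposited CPM (circles) and after TMM scaling (squares). Grey lines part the MYB family, the MuvB core and the pocket proteins. Dark symbols passed the test at an adjusted p under 0.05: Mybl2 to the right, Rb1 and Rbl2 to the left on both scales, and Rbl1 to the right after TMM scaling only.

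Rbl2 showed the largest difference of the 10 genes. Rbl2 (ENSMUSG00000031666, chromosome 8, 91070057 to 91123844, plus strand) encodes p130, the pocket protein of DREAM in resting cells. It had 34.7, 34.4, 33.5 and 33.1 CPM in the control libraries and 16.8, 18.2, 18.6 and 15.98 CPM in the treated ones. The libraries of each group lay within 3 CPM of one another and the groups stood far apart. The mean went from 33.9 ± 0.767 to 17.4 ± 1.20 CPM (SD, n = 4 each), a ratio of 0.513, and the log2 fold change was -0.93 (95% confidence interval -1.08 to -0.77, limma adjusted p = 7.2e-06, exact permutation p = 0.0286). Only 229 of 14264 genes had a log2 fold change as low or lower. The difference was -1.004 in replicates 1 and 4 and -0.85 in replicates 2 and 3, and passed the limma test in both. Aktip, on the opposite strand, shares 693 exonic bases with Rbl2 and had 51.7 CPM in the control libraries and 44.4 CPM in the treated ones.

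Rbl1 (ENSMUSG00000027641, chromosome 2, 157145893 to 157204534, minus strand) encodes p107, which takes the place of p130 in cycling cells and is itself a known E2F target. Its CPM were 41.7, 38.8, 44.9 and 37.7 in control and 45.4, 45.7, 46.9 and 44.2 in CHIR99021. Only control replicate 3 reached into the treated range. The log2 fold change of 0.16 (95% confidence interval 0.01 to 0.31) did not pass on the deposited CPM (limma adjusted p = 0.0869) and passed after TMM scaling (limma adjusted p = 0.0267), by edgeR on recovered reads (0.0392), by DESeq2 (0.0152) and without control replicate 3 (limma, 0.0315). The ratio of Rbl1 to Rbl2 within a library was 1.13 to 1.34 in control and 2.52 to 2.77 in CHIR99021, so the pair moved apart in each treated library irrespective of scaling.

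Rb1 (ENSMUSG00000022105, chromosome 14, 73183673 to 73325822, minus strand) encodes the retinoblastoma protein. It had 38.4, 36.3, 27.2 and 29.9 CPM in the control libraries and 23.9, 22.1, 25.1 and 24.6 CPM in the treated ones. The controls were spread, with replicates 1 and 2 well above replicates 3 and 4, and the treated libraries were close together below the lowest control. The mean went from 32.9 ± 5.27 to 23.9 ± 1.32 CPM (SD, n = 4 each), and the log2 fold change was -0.43 (95% confidence interval -0.67 to -0.20, limma adjusted p = 0.00911, exact permutation p = 0.0286). The difference was -0.47 in replicates 1 and 4 (limma adjusted p = 0.0344) and -0.40 in replicates 2 and 3 (limma adjusted p = 0.127). Rb1 shares 488 exonic bases with Rcbtb2 (140 CPM in control, 126 CPM in CHIR99021) and 408 with Lpar6 (25.2 and 24.9 CPM), both on the opposite strand, and whether the counting used the strand is not given in the sources used here. The ratio of Rbl1 to Rb1 was 1.07 to 1.65 in control and 1.80 to 2.07 in CHIR99021.

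**Figure D4:**
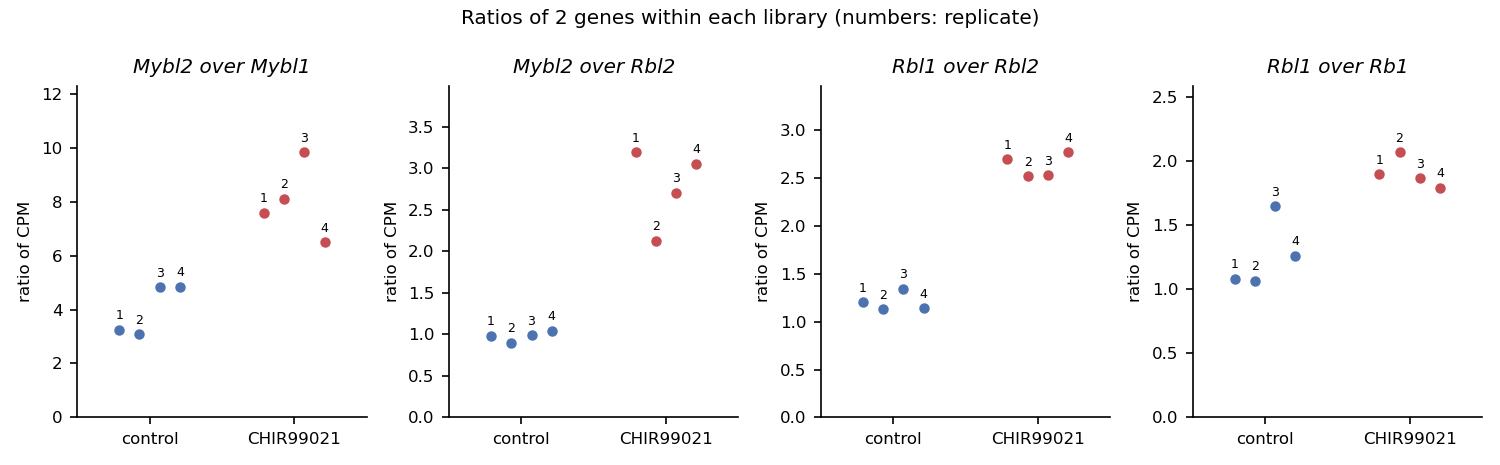
Ratio of the CPM of 2 genes within each library, 1 panel per pair and each vertical axis from 0, with points as libraries and their replicate number. The groups are apart in the 4 panels: Mybl2 over Rbl2 is 0.901 to 1.04 in control and 2.13 to 3.19 in CHIR99021, and Rbl1 over Rbl2 is 1.13 to 1.34 and 2.52 to 2.77.

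The ratio of Mybl2 to Rbl2 sets the activating partner of MuvB beside a repressing one. It was 0.982, 0.901, 0.990 and 1.04 in control and 3.19, 2.13, 2.71 and 3.05 in CHIR99021. The control libraries lay close together, and each treated library had more than 2 times the ratio of any control. On the log2 scale the groups differed by 1.49, and by 1.35 to 1.63 when any 1 library was left out. The ratio combines the opposite changes of the 2 genes given above and is no further evidence for them. It is a ratio of mRNA, and the proteins were not measured here.

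None of the 10 genes passed the limma test for a difference between the sexes or between their responses. The sex differences ran from -0.15 to 0.12 on the log2 scale, with 0 of 10 genes past an adjusted p of 0.05 and 0 of 10 past an unadjusted p of 0.05 (lowest unadjusted p = 0.0771, limma). Over all genes 0.0981% passed after adjustment and 4.27% before it. Differences in response (male minus female) ran from -0.21 for Mybl2 to 0.25 for Lin52, also with 0 of 10 genes on either rule (lowest unadjusted p = 0.248, limma), beside 0% and 1.27% of all genes. edgeR called 0 of 10 genes in both comparisons. With 2 libraries of each sex a group the intervals were wide, from -0.61 to 0.18 for the response of Mybl2.

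Some E2F proteins, with a DP protein, carry the pocket proteins to DNA. The list held the E2F and DP genes whether or not their proteins do so, and most of them rose. Of 10 listed genes, 7 were higher and 1 lower, with a median log2 fold change of 0.27, beside 12.3% higher, 21.4% lower and a median of -0.05 over all genes tested. The activators E2f3 (log2 fold change 0.59, 76.4 ± 2.34 to 116 ± 7.01 CPM, SD, n = 4 each) and E2f1 (35.4 ± 1.82 to 53.6 ± 4.54 CPM, 0.58) rose most, and E2f2 rose by 0.27. E2f4, the usual E2F of DREAM, rose by 0.22, whereas E2f5, its other E2F, was at -0.12 and did not pass (limma adjusted p = 0.233). The 2 DP genes went opposite ways, Tfdp1 from 146 ± 9.47 to 198 ± 3.86 CPM (0.43) and Tfdp2 from 106 ± 7.28 to 71.2 ± 1.32 CPM (-0.56). The repressors E2f6 and E2f8 rose by 0.26 and 0.34, the latter narrowly (limma adjusted p = 0.0489, not passing when any 1 of control replicates 2, 3 and 4 or CHIR99021 replicates 1, 3 and 4 was left out), and E2f7 did not pass. In replicates 1 and 4 alone 4 of these genes were higher, beside 1154 of all 14264 tested, and in replicates 2 and 3 alone 3, beside 611.

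The kinases that act on the pocket proteins and B-MYB, with their cyclins and DYRK1A, had 6 of 10 genes higher (60%) and 0 lower by limma. Of all genes tested 12.3% were higher and 21.4% lower. The median log2 fold change of the 10 was 0.30. At an unadjusted p under 0.05, 1 of the 10 was lower, and by edgeR and DESeq2 0 were. That gene was Ccnd3, which passed with the replicate block (limma adjusted p = 0.0196), without control replicate 1 (0.0249) and without CHIR99021 replicate 3 (0.0447), though not with TMM scaling and the block together. Ccnd1, the cyclin D1 gene and a known Wnt target, rose by 1.03, from 293 ± 19.0 to 602 ± 60.7 CPM (SD, n = 4 each), and its partner Cdk6 from 45.8 ± 3.75 to 81.2 ± 13.8 CPM (0.80). Ccnd3 (-0.18) and Ccna2 (-0.09), the lowest in the list, did not pass with all libraries and no block. Dyrk1a, whose kinase assembles DREAM and which was named after its value was seen, had a log2 fold change of 0.03 (limma adjusted p = 0.709). Of 6 tested genes for inhibitors of these kinases, 1 was higher (16.7%, beside 12.3% of all genes) and 3 lower (50%, beside 21.4%). Their median was -0.34. Cdkn1c (p57, -0.57) and Cdkn1b (p27, -0.53) fell, and Cdkn1a (p21) rose from 78.9 ± 11.98 to 135 ± 17.1 CPM (0.78). Cdkn2b, with a mean of 1.45 CPM in control, was at 0.08 and did not pass (limma adjusted p = 0.752). Cdkn2c (p18, -0.40, limma adjusted p = 0.0383) was the other gene called lower, and it did not pass after TMM scaling (limma adjusted p = 0.0663), by edgeR, or when control replicate 3 or 4 or any of the 4 CHIR99021 libraries was left out. With the replicate block 4 were lower (66.7%, beside 26.1% of all genes), Cdkn2d (p19) being the addition.

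Target genes of the G1/S phase mostly rose, and most G2/M genes did not pass the test. Of 28 listed G1/S genes, which DREAM and E2F control, 20 were higher (71.4%, beside 12.3% of all genes tested) and 0 lower by limma, with a median log2 fold change of 0.38, and 0 were lower at an unadjusted p under 0.05 or by edgeR or DESeq2. Cdc6 (38.7 ± 2.26 to 66.8 ± 7.46 CPM, SD, n = 4 each, 0.77) and Cdt1 (34.0 ± 2.67 to 54.3 ± 3.26 CPM, 0.66), which load the replicative helicase, were the highest. Tk1, thymidine kinase, (-0.13) and Rfc4, a subunit of the clamp loader, (-0.03) were the lowest and did not pass. In replicates 2 and 3 alone 12 of these genes were higher, beside 611 of all 14264 tested.

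Of 30 listed G2/M genes, which B-MYB with MuvB and FOXM1 activate, 0 were higher and 6 lower by limma. The share called lower, 20%, was close to the 21.4% of all genes tested. The median log2 fold change was -0.17, beside -0.05 over all genes, and it was -0.09 without CHIR99021 replicate 2. Estimates were negative for 28 of the 30 genes, beside 8234 of all 14264. Nusap1, a spindle protein gene, fell most, from 54.5 ± 5.32 to 33.7 ± 4.14 CPM (SD, n = 4 each, -0.68), followed by Cdca3 (-0.43), which promotes mitotic entry. The other 4, named after their values were seen, were Ccnb2 (-0.41), Cenpf (-0.34), Cdc20 (-0.30) and Tpx2 (-0.25). Cenpf and Tpx2 did not pass after TMM scaling (limma adjusted p = 0.0672 and 0.102). Nor did they when single libraries were left out, which were control replicates 1, 2 and 4 for Cenpf, and control replicates 1 and 3 and CHIR99021 replicates 2 and 4 for Tpx2. Cks2 (0.14) and Cdk1 (0.01) had the highest values and did not pass, and Foxm1, also named after its value was seen, went from 60.3 ± 2.50 to 55.3 ± 8.54 CPM (-0.13, limma adjusted p = 0.322). The count of lower genes moved with the fit. It was 4 after TMM scaling (13.3%, beside 16.3% of all genes) and 13 with the replicate block (43.3%, beside 26.1%). With sex as a covariate it was 10 of 30, beside 2961 of all 14264 genes. TMM scaling with the block gave 9, beside 2876, and replicates 2 and 3 alone 1, beside 1057. The count of higher genes was 0 in each of these, at an unadjusted p under 0.05, and by edgeR and DESeq2. The median was -0.11 after TMM scaling, where 24 of the 30 estimates were negative, beside 6893 of all 14264. The summed level of the 30 genes was 2759, 2345, 2477 and 2417 CPM in control and 2453, 1878, 2351 and 2188 CPM in CHIR99021, and that of the G1/S genes 2370, 2236, 2426 and 2259 CPM and 3153, 2727, 3186 and 2963 CPM. CHIR99021 replicate 2, the treated library with the least Mybl2, was also the lowest of the treated libraries in both sums. Control replicate 2 was likewise the lowest of the controls in Mybl2 and in both sums.

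**Figure D5:**
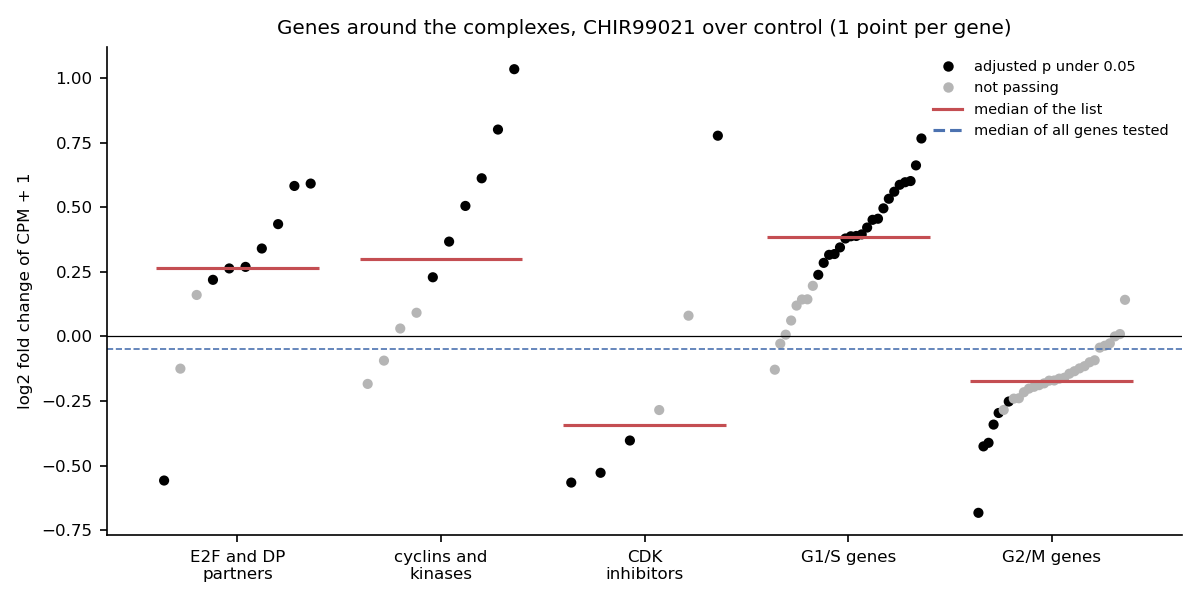
Log2 fold change of CPM + 1, CHIR99021 over control, for the genes of 5 lists, 1 point per gene in rising order. Black points passed the test (limma, adjusted p under 0.05), red bars are the medians of the lists and the dashed line is that of all genes tested (-0.05). The G1/S genes lie mostly above 0 with 20 of 28 higher, and the G2/M genes mostly below it with 6 of 30 lower, a share near the 21.4% of all genes tested.

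Among relatives outside the complexes, Myb, the c-MYB gene, which does not bind MuvB in vertebrates, rose by 0.36 on the log2 scale (limma adjusted p = 0.0296), with 6.71 ± 0.756 CPM in control and 8.91 ± 1.01 CPM after treatment (SD, n = 4 each). It did not pass when control replicate 2, 3 or 4 or CHIR99021 replicate 1, 2 or 4 was left out. Of 12 genes for subunits of the other complexes that hold RBBP4, 3 were higher by limma (25%, beside 12.3% of all genes tested). By the same test 0 were lower, beside 21.4%. Their median was 0.10, and 0 were lower at an unadjusted p under 0.05 or by edgeR or DESeq2. Chaf1b and Chaf1a, the CAF-1 subunits that deposit histones behind the replication fork, rose by 0.72 and 0.34, and Mta1 of NuRD, named after its value was seen, by 0.18. Mta1 did not pass when control replicate 1 or 2 or CHIR99021 replicate 1 or 3 was left out. Chd4 (-0.15) and Sin3a (-0.11) were the lowest and did not pass.

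The genes nearest in profile were found by the Euclidean distance of centred log2(CPM + 1) over the 8 libraries, as a description. For Mybl2 they were Urb1, Etv4, Uhrf1, Ddx31 and Nolc1, at distances of 0.162 to 0.186 beside a median of 0.970 over all genes tested. Uhrf1 is also in the G1/S list, and went from 159 to 236 CPM. For Rbl2 they were Car13, Atp7b, Khdrbs2, Mme and BC064078, at 0.133 to 0.198 beside a median of 1.32. The 5 neighbours of Rbl2 had log2 fold changes of -0.998 to -0.868, and Mme was the most abundant of them with 482 CPM in control and 250.5 CPM in CHIR99021.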

How the data were processed

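Polyadenylated, strand-specific libraries of 75 bp paired-end fragments were mapped by the authors to GRCm38 with HISAT2, per the submitters' processing notes. The counting tool and its strand setting are not given in the sources used here. The deposited values are CPM, reads per gene over the reads the authors assigned, for 42775 genes. The 12 deposited columns of the authors' own comparisons (fold changes, log2 fold changes, p-values and false discovery rates, over all libraries and by sex) were not used. Each library's CPM were multiples of the CPM of 1 read, and 100% of values were whole reads within 0.001 read. Counting noise was therefore small for the members, which had 310 reads or more in each library.

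Treatment, sex (with treatment as a covariate) and their interaction were tested with limma 3.58.1 (R 4.3.3, trend) on log2(CPM + 1) for 14264 genes whose CPM averaged at least 1, with Benjamini-Hochberg adjustment over those genes at 0.05. Fold changes on this scale understate those of low genes. Single values were also tested by an exact permutation over 70 assignments. Scripts were tested on simulated data. The members and lists were chosen with earlier results of these data known. Named were the 10 members, the 2 highest and 2 lowest genes of each list, the paralogs and E2F or DP genes that passed, and the 5 nearest profiles of Mybl2 and Rbl2. Outside this rule, Cdkn2c, Cdkn2d, E2f5 and E2f7 were named after their values were seen, as were others where the text says so.

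Alternatives were a pseudocount of 0.1, no filter, a mean CPM of at least 5, TMM scaling, sex as a covariate, a replicate block, replicates 1 and 4 or 2 and 3 alone, leaving out each library, and edgeR 4.0.16 and DESeq2 1.42.0 on the recovered reads. TMM scaling with the block was added after seeing the data. Replicate numbers were checked for pairing: after removal of group means, same-numbered control and CHIR99021 libraries correlated across genes with r of 0.51, 0.25, 0.35 and 0.34. No label states a pairing, so the main tests and their intervals were unpaired. The replicate block is given only as an alternative. Gene positions and exon lengths came from GENCODE M21, which held 99.3% of the gene identifiers (42459), and promoter windows from RefSeq on GRCm38.p6. Matrices were handled in Python 3.11.15.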

Additional observations from a re-analysis of the deposited data

How the results depend on the processing

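The rise of Mybl2 and the fall of Rb1 passed the test under each alternative run except in replicates 2 and 3 alone (limma adjusted p = 0.0669 and 0.127), and the fall of Rbl2 passed under each. Members called higher numbered 1, but 2 after TMM scaling, 2 by edgeR with TMM and with DESeq2 size factors, 3 by DESeq2, 3 with TMM scaling and the replicate block, 0 in replicates 2 and 3 alone, and 1 to 2 when single libraries were left out. Members called lower numbered 2, but 1 in replicates 2 and 3 alone, 3 with the replicate block, and 2 to 3 when single libraries were left out. The added calls were Rbl1, Lin9 and Mybl1 with the block (adjusted p = 0.0372, but 0.0578 with TMM scaling as well), and the block alone changed no other member's call. The log2 fold change of Lin52 ran from -0.18 to 0.0058 when single libraries were left out. That of Rbbp4 turned positive after TMM scaling (0.027, with or without the block), by edgeR with TMM (0.029) or DESeq2 size factors (0.033) and by DESeq2 (0.033), all of which scale the treated libraries up.

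Over all genes, 1753 were higher and 3052 lower, and 36.5% of calls were higher, against 51.2% after TMM scaling (2446 and 2330). By edgeR, on 18116 genes, 2324 were higher with TMM and 2410 with DESeq2 size factors. DESeq2, on 26831 genes, called 2772 higher. Of the 14264 genes tested by limma, 3061 were higher with TMM scaling and the block. Replicates 1 and 4 gave 1154, and replicates 2 and 3 gave 611, where 1057 were lower. When single libraries were left out, 1370 to 1723 of the 14264 genes were higher and 2492 to 2887 lower. Of the subunit genes of other RBBP4 complexes, 5 were higher by DESeq2 and with TMM scaling and the block, and 1 in replicates 2 and 3. The cause of these shifts was not tested. With 4 libraries a group, members with wide intervals (Mybl1, Lin37, Lin52) may differ by amounts that were not detectable here. Overlapping genes on the opposite strand limit the levels of Rb1, Rbl2 and Rbbp4. Whether reads were split between Rbbp4 and its paralog Rbbp7 was not tested.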
